A study of Homo sapiens with 15 samples.

Results

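Wild-type EWS/FLI (WT-EF) was compared with DAF, a form of the fusion whose N-terminal EWS domain carries tyrosine to alanine mutations, to ask which parts of the transcriptome need those tyrosines. Both were expressed in A673 cells, an established Ewing sarcoma line, and the comparison used 6 of the 15 RNA-seq libraries, 3 for WT-EF and 3 for DAF. Every cell in both groups first received an shRNA against endogenous EWS/FLI (endo-EF) on day 1. On day 5 a retrovirus in the pMSCV-hygro backbone then delivered the WT-EF or the DAF cDNA, and selection lasted until day 16, with puromycin at 2 μg/mL and hygromycin B at 400 μg/mL. Levels are also given in iEF cells, which received the shRNA and the empty vector, and in iLuc cells, whose shRNA targets luciferase and which therefore still have endo-EF. The 15 libraries also include del22 cells, which received the shRNA and a form of the fusion without the EWS domain, and all entered the statistical fit. WT-EF and DAF cells therefore share the line, the shRNA, the vector and the selection and differ in the cDNA, and libraries with the same replicate number form 1 set, which the study treated as a batch. Changes in the make-up of a culture and in RNA per cell cannot be told apart in these bulk libraries.

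EWS/FLI joins the low-complexity N-terminal domain of EWSR1 to the ETS DNA-binding domain of FLI1. It activates genes from GGAA microsatellites, where many copies of the ETS core motif stand in tandem, and it is also known for keeping mesenchymal genes, such as those of the matrix and of TGF-beta signaling, at low levels in Ewing sarcoma cells. The EWS domain consists of degenerate SYGQ-rich repeats, whose tyrosines are known to be needed for the domain to associate with itself and with other low-complexity proteins. DAF keeps the DNA-binding domain.

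Reads on *FLI1* (ENSG00000151702, chromosome 11, 128556430 to 128683162 of GRCh37) come from endo-EF and from the cDNAs, which gene counts do not separate. *FLI1* was at 16.0, 18.0 and 18.7 counts per 1000000 of the TMM-scaled library total (CPM) in WT-EF replicates 1, 2 and 3, and at 22.1, 23.6 and 27.3 CPM in the DAF replicates. All 3 DAF libraries were above all 3 WT-EF libraries, so that DAF cells did not have less *FLI1* RNA. The log2 fold change of WT-EF over DAF was -0.47 (SE 0.10, adjusted p = 0.00264) in the quasi-likelihood test of edgeR, adjusted over all genes by the Benjamini-Hochberg method, which is the test behind every adjusted p here. All log2 fold changes are those of WT-EF over DAF unless another pair is named, and values in a row are those of replicates 1, 2 and 3, WT-EF before DAF. iEF cells were at 14.6 ± 1.44 CPM (mean ± SD, n = 3) and iLuc cells at 49.4 ± 2.62 CPM. *EWSR1*, which has an unrearranged copy in these cells as well, was at 333, 332 and 364 CPM with WT-EF and at 291, 293 and 321 CPM with DAF. Its log2 fold change of 0.19 (SE 0.07, adjusted p = 0.0475) was small, and the call was lost whichever of the 6 libraries was left out (adjusted p between 0.0633 and 0.185 [2.83e-05 to 0.318]). Square brackets after such a value give the range of that gene's adjusted p over the 17 alternatives to the analysis that, like it, tested for any difference.

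Of 28793 genes with a mean of 1 count or more per library, 3573 (12.4%) were higher with WT-EF than with DAF and 4628 (16.1%) were lower at an adjusted p under 0.05. Past a 2-fold difference as well, 1213 genes (4.21%) were higher and 2216 (7.70%) were lower. Without DAF replicate 3, 2344 genes were higher and 3536 lower. Every WT-EF library was above every DAF library in 4999 of the 28793 genes and below every DAF library in 5830. Separation of the groups in a gene picked for its difference therefore adds little. The median log2 fold change over all genes was -0.01. With library totals in place of TMM that median was 0.15, and the split of calls became 5208 higher and 3529 lower, so small shifts shared by many genes depend on the scaling. Calls were more frequent among abundant genes, from 2.06% higher and 2.90% lower at a mean of 1 to 10 counts to 23.6% and 31.5% at a mean of 1000 counts or more. Among protein-coding genes 18.1% were higher and 24.6% lower, and among long noncoding RNA genes 6.54% and 7.25%. The members of a list of abundant genes are best read against the shares for abundant genes, which are higher than those over all genes.

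**Figure D1:**
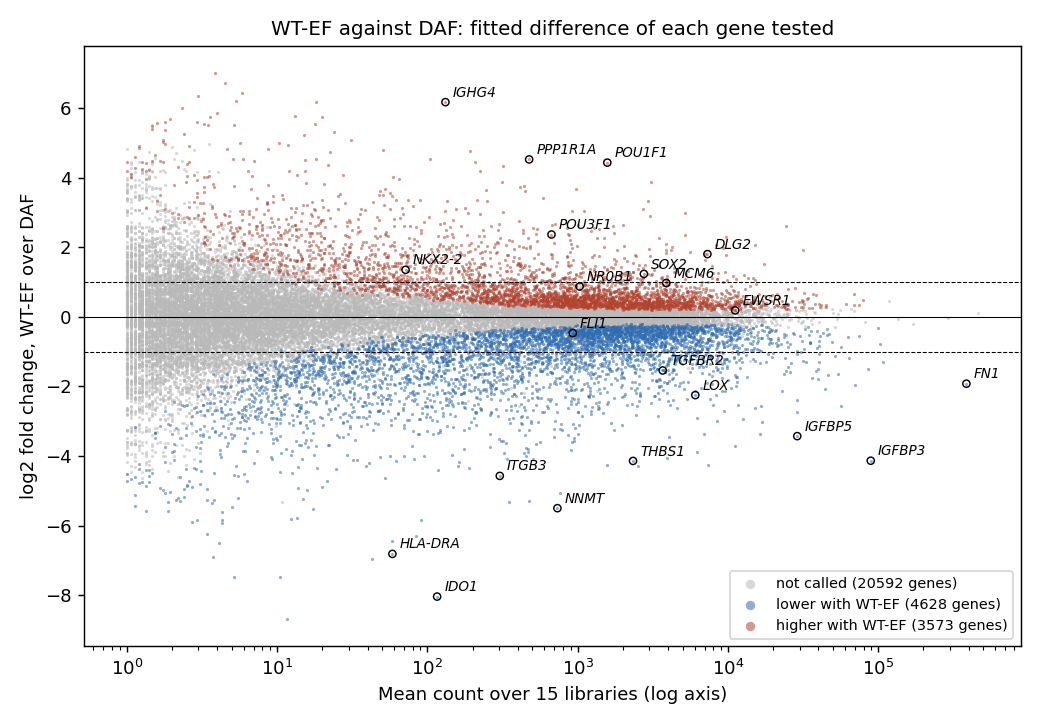
Fitted log2 fold change of WT-EF over DAF (y axis) against the mean count over 15 libraries (x axis, log scale) for each gene tested, with dashed lines at a 2-fold difference. The 3573 genes higher with WT-EF and the 4628 lower ones are colored, and the abundant genes with the largest differences, such as *FN1*, *IGFBP3* and *IGFBP5*, lie on the lower side.

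Genes were grouped in 33 lists by role. The lists were drawn up with earlier results of these data known, so their shares describe and do not test. Members averaging under 1 count per library, or with no matching symbol, were not tested, which left 29 of 39 HOX genes, 44 of 52 neural transcription factors, 44 of 46 synaptic genes, 48 of 54 potassium channels, 59 of 60 axon guidance genes, 56 of 57 DNA replication genes, 21 of 23 G1 genes, 19 of 20 genes of the IGF axis, 34 of 39 chemokines and cytokines, 37 of 38 cholesterol and fatty acid genes, 27 of 28 BAF genes, 27 of 28 polycomb genes and 17 of 19 bone lineage genes. All members of the other lists were tested. The lists with the highest shares of higher members were DNA replication, activated targets and ribosome biogenesis, and those with the highest shares of lower members were repressed targets, MHC antigen presentation and integrins and laminins.

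**Figure D2:**
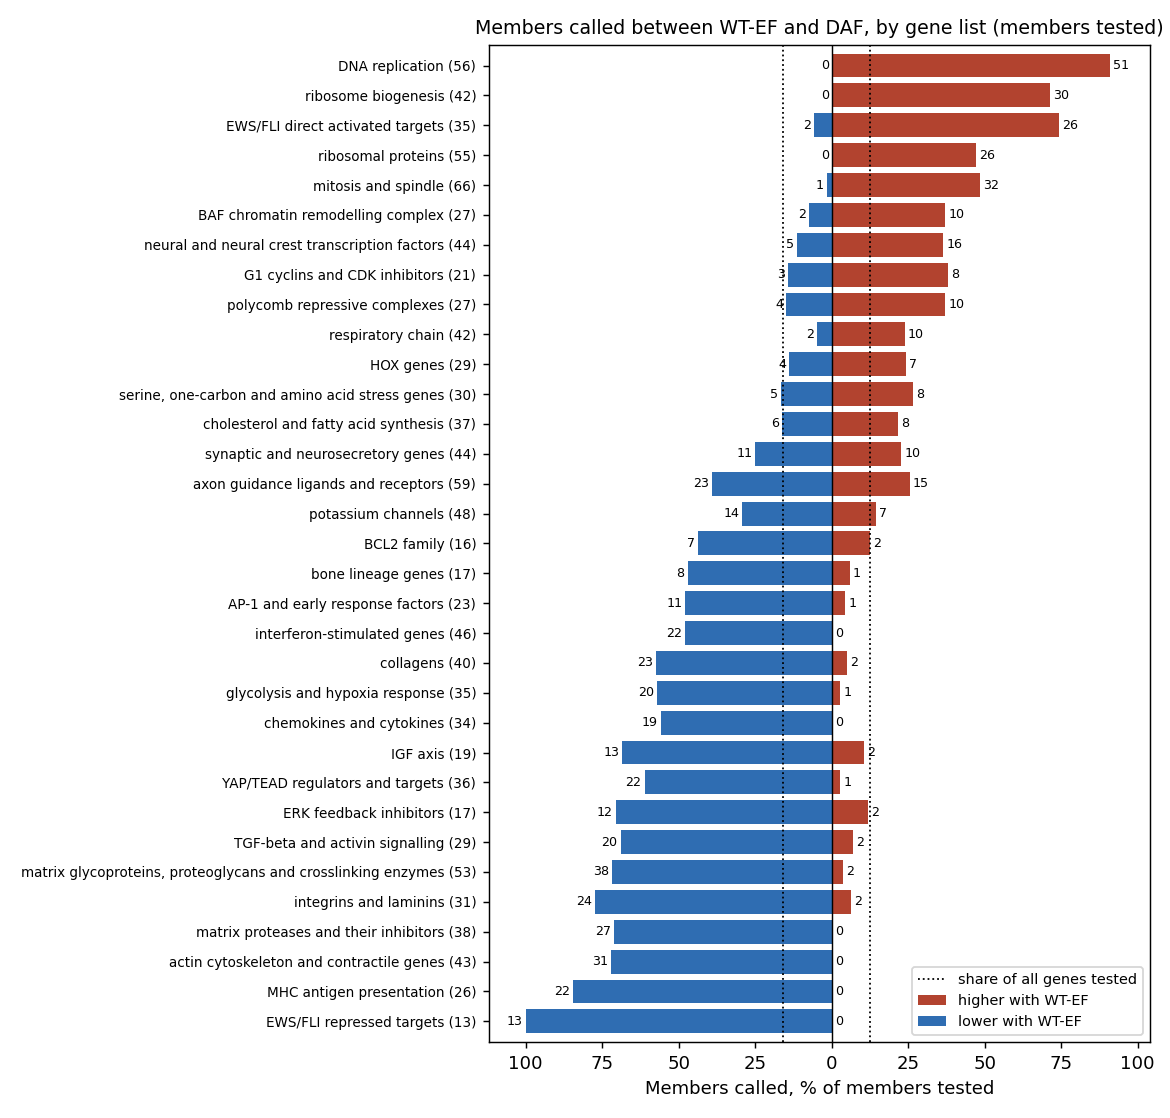
Share of the tested members of each gene list that were higher with WT-EF (right) or lower (left), in percent, with the number of members at each bar and the number tested after each name, and dotted lines at the shares of all genes (12.4% and 16.1%). DNA replication is at the top with 51 higher members, and the repressed targets are at the bottom with 13 lower members.

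GGAA microsatellites near gene starts were read from GRCh37, since they are among the elements through which the fusion activates. Distant microsatellites and other ETS sites were not read. The sequences for 4 of the named genes with a run of 10 or more consecutive GGAA units are shown to make the element visible. Every GGAA unit is in capitals, 40 bases flank the longest run on each side, and the strand that reads GGAA is printed 5′ to 3′. The run of *NR0B1* is centered 1389 bases upstream of its annotated start (printed: chrX:30328835-30328958, minus strand), that of *GSTM4* 1811 bases upstream (chr1:110196851-110196970, plus strand), that of *RBM11* 2817 bases upstream (chr21:15585573-15585696, minus strand) and that of *FRG2FP* 1990 bases upstream (chr3:197835010-197835165, plus strand). The longest runs have 11, 10, 11 and 19 units, and the *NR0B1* and *GSTM4* runs have further units beside them, for 20 and 19 in the printed stretch.
NR0B1: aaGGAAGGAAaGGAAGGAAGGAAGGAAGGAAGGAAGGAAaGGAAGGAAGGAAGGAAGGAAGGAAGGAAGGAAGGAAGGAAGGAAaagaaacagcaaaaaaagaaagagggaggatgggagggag
GSTM4: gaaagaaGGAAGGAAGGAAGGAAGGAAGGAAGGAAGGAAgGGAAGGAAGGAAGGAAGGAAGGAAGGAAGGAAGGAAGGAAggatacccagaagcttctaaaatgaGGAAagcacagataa
RBM11: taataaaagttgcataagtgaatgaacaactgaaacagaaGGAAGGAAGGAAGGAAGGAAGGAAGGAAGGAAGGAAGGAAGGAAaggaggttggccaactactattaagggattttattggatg
FRG2FP: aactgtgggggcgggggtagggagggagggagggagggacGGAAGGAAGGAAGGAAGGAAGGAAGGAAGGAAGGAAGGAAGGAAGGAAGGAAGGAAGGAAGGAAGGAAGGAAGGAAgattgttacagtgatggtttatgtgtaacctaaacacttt

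A run of 10 or more GGAA units (GGAA read on either strand) lay from 5000 bases upstream to 1000 bases downstream of the start in 0.649% of the 27879 genes with a matched position. The share was 1.49% among genes higher with WT-EF and 3.55% among those over 2-fold higher. It was 0.507% among lower genes and 0.509% among those over 2-fold lower. Of the 181 genes with such a run, which share 170 separate runs, 52 (28.7%) were higher with WT-EF and 23 (12.7%) were lower, beside 12.4% and 16.1% of all genes. Their median log2 fold change from iEF was 0.71 with WT-EF and 0.40 with DAF. With a minimum of 4 units the shares were closer together, at 2.35% of all genes, 2.92% of the higher and 2.38% of the lower ones. Reads for *FRG2FP*, a pseudogene of a family with near-identical copies, cannot be assigned to it with certainty.

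*NR0B1*, the orphan nuclear receptor DAX1, was at 42.2, 46.1 and 59.4 CPM with WT-EF and at 15.7, 26.1 and 44.4 CPM with DAF. The groups overlapped, since DAF replicate 3 exceeded WT-EF replicate 1. The log2 fold change was 0.87 (SE 0.34, adjusted p = 0.0751), and the call was made without the replicate 3 set (adjusted p = 0.00183 [1.74e-05 to 0.297]), in the 6 libraries alone, with library totals, without the filter on low counts and on counts adjusted with ComBat, a batch correction, and tested with DESeq2 without the replicate block. Relative to iEF cells (log2 fold change), *NR0B1* was 3.13 higher with WT-EF (adjusted p = 2.06e-05) and 2.26 higher with DAF (adjusted p = 0.00143). *NKX2-2*, a homeodomain repressor that Ewing sarcoma cells need for transformation, was at 2.22, 2.14 and 2.69 CPM with WT-EF and 0.738, 1.27 and 0.771 CPM with DAF, with no overlap and a log2 fold change of 1.35 (SE 0.25, adjusted p = 0.000994). The iEF mean was 0.943 ± 0.0696 CPM, and the difference of DAF from iEF did not pass (-0.03, adjusted p = 0.972). *GLI1*, the transcription factor at the end of the Hedgehog pathway, was at 1.5, 2.99 and 4.37 CPM with WT-EF and 0.105, 0.976 and 0.402 CPM with DAF, again apart (2.61, SE 0.43, adjusted p = 0.000352).

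*SOX2*, a stem cell transcription factor, was at 123, 106 and 136 CPM with WT-EF and at 45.3, 49.8 and 60.6 CPM with DAF, a log2 fold change of 1.23 (SE 0.18, adjusted p = 0.000118), and DAF lay at the iEF level of 53.0 ± 9.53 CPM. *GSTM4*, a glutathione transferase with the microsatellite shown above, was at 40.7, 44.8 and 66.5 CPM with WT-EF and at 17.9, 37.8 and 32.7 CPM with DAF. The groups did not overlap (0.81, SE 0.21, adjusted p = 0.00920), but the call was lost without DAF replicate 1 (adjusted p = 0.0607 [9.16e-07 to 0.0648]), WT-EF replicate 3 (0.0648) or replicate set 1 (0.0602). *GSTM4* was 2.06 above iEF with WT-EF and 1.25 above it with DAF on the log2 scale. *FCGRT*, the neonatal Fc receptor, was at 58.4, 71.6 and 67.5 CPM with WT-EF and 34.6, 74.7 and 77.1 CPM with DAF, which overlapped, and its log2 fold change of 0.15 (SE 0.24, adjusted p = 0.721) did not pass. Both constructs raised *FCGRT* from the iEF mean of 7.23 ± 3.01 CPM, by 3.21 with WT-EF (adjusted p = 7.36e-07) and by 3.06 with DAF (adjusted p = 1.33e-05) on the log2 scale.

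Of 35 tested genes on a list of targets that the fusion is known to activate, 26 (74.3%) were higher with WT-EF, 2 (5.71%) were lower and 7 did not pass. Of all genes 12.4% were higher and 16.1% lower. Their median log2 fold change of WT-EF over DAF was 1.07. From iEF, the median was 2.76 with WT-EF and 0.92 with DAF. By library, the median over members of log2(CPM + 1) stood 2.14, 2.43 and 2.48 above the iEF mean in WT-EF replicates 1, 2 and 3 and 0.54, 1.03 and 0.83 above it in the DAF replicates. DAF libraries were thus above iEF and below every WT-EF library on this summary. Of the 3 members with the smallest adjusted p, *PPP1R1A*, an inhibitor of protein phosphatase 1, was at 8.56, 7.40 and 19.5 CPM with WT-EF and 0.176, 0.554 and 0.738 CPM with DAF (4.52, SE 0.41, adjusted p = 4.09e-06). *POU3F1*, a POU-domain transcription factor, was at 26.9, 38.5 and 34.5 against 5.31, 8.76 and 5.6 CPM (2.37, SE 0.16, adjusted p = 6.34e-07). *RBM11*, an RNA-binding protein, was at 116, 214 and 206 against 41.4, 62.0 and 45.0 CPM (1.84, SE 0.16, adjusted p = 2.95e-06). In each of these all WT-EF libraries were above all DAF libraries, and *RBM11* with DAF was above its iEF mean of 26.2 ± 7.71 CPM, while *PPP1R1A* with DAF was near its iEF mean of 0.564 ± 0.212 CPM.

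The members that went the other way were *TNC*, the matrix glycoprotein tenascin C, and *UPP1*, uridine phosphorylase 1. *TNC* was at 1306, 1260 and 1397 CPM with WT-EF and 2198, 2363 and 2641 CPM with DAF (-0.86, SE 0.23, adjusted p = 0.0102), with iEF at 2160 ± 457 CPM and iLuc at 360.5 ± 123 CPM. *UPP1* was at 9.33, 5.31 and 4.23 against 12.5, 12.6 and 13.8 CPM (-1.07, SE 0.29, adjusted p = 0.0112), and was not called without WT-EF replicate 3, DAF replicate 2 or replicate set 2 (adjusted p between 0.0509 and 0.0813 [2.94e-06 to 0.0813]). In both genes the iLuc level was below the iEF level, so endo-EF did not raise them in these cells either. On ComBat-adjusted counts tested with DESeq2 without the replicate block, the call of *PPP1R1A* was lost (adjusted p = 0.0992 [2.35e-34 to 0.0992]).

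**Figure D3:**
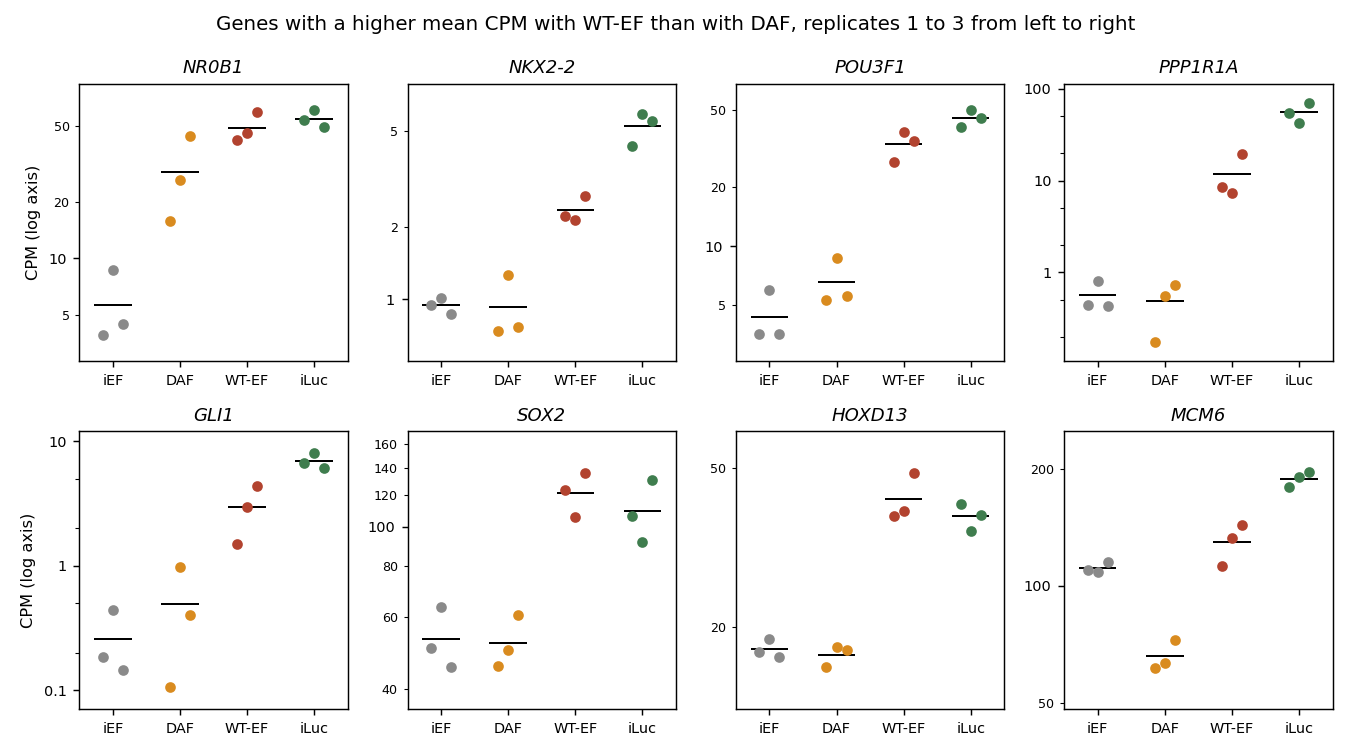
CPM (log axis) of 8 genes in iEF, DAF, WT-EF and iLuc cells, each point being a library and each bar a group mean (n = 3). DAF libraries sit with iEF for *NKX2-2*, *PPP1R1A*, *SOX2* and *HOXD13*, between iEF and WT-EF for *NR0B1*, and below iEF for *MCM6*.

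Among the 12 genes with the largest fitted increases (at a mean of 50 counts or more) were several of neuroendocrine and developmental type. *CHGA*, encoding the secretory granule protein chromogranin A, was at 2.80, 14.4 and 9.51 CPM with WT-EF and at 0.527, 0.475 and 0.168 CPM with DAF (4.46, SE 0.48, adjusted p = 1.43e-05). *CALCB*, a calcitonin gene-related peptide gene, was at 27.9, 32.1 and 33.9 against 1.05, 2.22 and 1.37 CPM (4.33, SE 0.38, adjusted p = 3.14e-06), and its WT-EF libraries also exceeded the iLuc mean of 9.57 ± 3.82 CPM. *POU1F1*, a pituitary POU-domain factor, was at 19.2, 57.6 and 70.3 against 1.12, 4.41 and 1.84 CPM (4.43, SE 0.45, adjusted p = 9.34e-06), which left WT-EF below the iLuc mean of 166 ± 42.9 CPM. *LRRTM4*, a synaptic adhesion protein, was at 3.77, 6.29 and 10.1 against 0.316, 0.422 and 0.469 CPM (4.02, SE 0.45, adjusted p = 1.80e-05), and *CER1*, a secreted antagonist of BMP and Nodal, at 15.9, 21.7 and 11.2 against 0.879, 2.16 and 0.738 CPM (3.76, SE 0.34, adjusted p = 4.09e-06).

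The largest fitted increase was that of *IGHG4* (chromosome 14, 106086843 to 106092403), a constant-region gene of the immunoglobulin heavy chain, at 4.35, 8.75 and 18.2 CPM with WT-EF and 0.105, 0.237 and 0.0335 CPM with DAF (log2 fold change 6.17, SE 0.48, adjusted p = 1.82e-06). Its reads may be shared with neighboring constant-region genes of near-identical sequence. *SYCP1*, a protein of the synaptonemal complex of meiosis, was at 0.914, 2.93 and 6.55 CPM and 0, 0.211 and 0.101 CPM, where the DAF libraries held 11 counts in all. Also among them were the noncoding *LINC02253* (4.52, SE 0.49) and *LINC01192* (3.96, SE 0.51) and *FRG2FP* (3.87, SE 0.35), with adjusted p values of 1.47e-05, 5.55e-05 and 4.04e-06. In all 12 genes every WT-EF library was above every DAF library, as in 4999 of the 28793 genes tested. The 12 were picked for large increases that went the same way in every replicate set, so this separation adds little. *IGHG4*, *SYCP1*, *CHGA* and *POU1F1* were not called on ComBat-adjusted counts with DESeq2 (adjusted p between 0.0763 and 0.239), and *FRG2FP* was given no adjusted p there.

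The HOX genes, which pattern the body axis, had their calls mostly in the HOXD and HOXB clusters. Of 29 tested, 7 (24.1%) were higher and 4 (13.8%) lower with WT-EF, beside 12.4% and 16.1% of all genes, with a median log2 fold change of 0.01. *HOXD13* was at 37.9, 39.2 and 48.7 CPM with WT-EF and at 15.9, 17.8 and 17.6 CPM with DAF (1.29, SE 0.12, adjusted p = 5.66e-06), *HOXD8* at 49.3, 52.1 and 48.8 against 24.2, 25 and 20.0 CPM (1.13, SE 0.12, adjusted p = 1.50e-05) and *HOXD9* at 21.3, 17.4 and 19.0 against 10.1, 10.7 and 7.68 CPM (1.03, SE 0.17, adjusted p = 0.000392). In these 3 genes DAF was at about the iEF level (-0.05, -0.05 and 0.31 from iEF on the log2 scale) while WT-EF was 1.24, 1.08 and 1.34 above it. *HOXD3*, *HOXD10* and *HOXD11* were also higher, by 1.19, 0.57 and 0.75, and so was *HOXC13*, named after its values were seen (1.09, SE 0.23, adjusted p = 0.00206). *HOXD4* (adjusted p = 0.0674, or 0.0443 without WT-EF replicate 1 [0.0402 to 0.493]), *HOXD12* (0.116) and *HOXD1* (0.274) did not pass.

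The 4 lower HOX genes were all of the HOXB cluster. *HOXB8* was at 1.74, 1.48 and 1.17 CPM with WT-EF and 7.56, 5.94 and 6.14 CPM with DAF (-2.16, SE 0.17, adjusted p = 1.99e-06), *HOXB7* differed by -0.60 (SE 0.09, adjusted p = 0.000143) and *HOXB2* by -0.86 (SE 0.17, adjusted p = 0.00123). *HOXB6*, named after its values were seen, differed by -0.70 (SE 0.24, adjusted p = 0.0396). DAF was at 0.01, -0.01 and -0.29 from iEF for *HOXB8*, *HOXB7* and *HOXB2*, and WT-EF at -2.15, -0.61 and -1.15.

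Transcription factors of neural and neural crest development were higher with WT-EF in 16 of 44 genes (36.4%) and lower in 5 (11.4%), with a median of 0.24. Of all genes 12.4% were higher and 16.1% lower, so lower members were no more frequent here than among all genes. *SOX1* was at 7.06, 12 and 12.4 CPM with WT-EF and 1.76, 2.30 and 1.91 CPM with DAF (2.40, SE 0.25, adjusted p = 1.01e-05), far from the iLuc mean of 46.5 ± 5.62 CPM in both. *ZIC2* was at 101, 88.8 and 122 against 50.7, 49.8 and 45.9 CPM (1.09, SE 0.11, adjusted p = 7.64e-06). Lower with WT-EF were *SOX9*, the chondrogenic and neural crest factor, at 25.3, 24.7 and 27.2 CPM with WT-EF and 69.1, 63.3 and 66.9 CPM with DAF (-1.37, SE 0.12, adjusted p = 4.09e-06), *MEIS2* (-1.16, SE 0.21, adjusted p = 0.000749) and *ID3*, an inhibitor of basic helix-loop-helix factors (-0.87, SE 0.17, adjusted p = 0.00120). The other lower members, named after their values were seen, were *TFAP2A* (-0.62, SE 0.18, adjusted p = 0.0177) and *MSX2* (-1.26, SE 0.39, adjusted p = 0.0244). Without DAF replicate 2 or DAF replicate 3, 3 members were lower.

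Genes of the neuronal surface and synapse did not move one way. Of 44 synaptic and neurosecretory genes 10 were higher and 11 lower (median -0.02), of 48 potassium channel genes 7 and 14 (-0.35), and of 59 axon guidance genes 15 and 23 (-0.23). As shares these are 22.7% and 25%, 14.6% and 29.2%, and 25.4% and 39.0%, beside 12.4% and 16.1% of all genes. The share of higher potassium channel genes is near that of all genes. Without replicate set 2 6 synaptic genes were lower and 4 channel genes higher, and without replicate set 1 8 guidance genes were higher, or 9 without DAF replicate 3. *DLG2*, a postsynaptic scaffold, was at 382, 453 and 567 CPM with WT-EF and 136, 168 and 108 CPM with DAF (1.80, SE 0.26, adjusted p = 0.000135). DAF cells were also above their iEF level of 21.6 ± 10.9 CPM, by 2.72 on the log2 scale. *DLG4*, the scaffold PSD-95, was higher by 0.88 (SE 0.15), while *UNC13A*, which primes synaptic vesicles, was lower, at 9.80, 11.5 and 6.12 CPM with WT-EF and 42.3, 32.2 and 26.6 CPM with DAF (-1.90, SE 0.19, adjusted p = 7.51e-06). *SCG5*, a chaperone of prohormone processing, and the scaffold *SHANK3* had log2 fold changes of -1.70 and -0.87.

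Among the channels, *KCNE3*, a regulatory subunit, was at 106, 89.8 and 94.3 CPM with WT-EF and 32.9, 35.6 and 32.3 CPM with DAF (1.53, SE 0.23, adjusted p = 0.000195), and *KCNA2* and *KCNAB3*, a voltage-gated channel and a beta subunit, had log2 fold changes of 1.69 and 1.98. The calcium-activated channels *KCNN4* (-1.93) and *KCNMA1* (-1.92) and the K2P channel *KCNK6* (-3.08) were lower. *KCNMA1* was at 15, 10.01 and 7.08 CPM with WT-EF, at 57.6, 30.0 and 35.1 CPM with DAF and at 113 ± 17.3 CPM in iEF cells. The calls of *KCNN4* and *KCNMA1* were lost on ComBat-adjusted counts with DESeq2 (adjusted p = 0.0787 [2.59e-15 to 0.0787] and 0.148 [9.62e-25 to 0.148]). In axon guidance the ephrin ligand *EFNB1* was at 138, 130.005 and 95.2 CPM with WT-EF and 36.3, 51.4 and 48.5 CPM with DAF (1.42, SE 0.18, adjusted p = 5.22e-05). The ephrin receptors *EPHA5* and *EPHA4* were higher (1.94 and 0.94) and *EPHB2* was lower (-1.24). The secreted cues *SEMA3A* and *NTN4* were lower, the latter at 20.5, 20.5 and 16.5 CPM with WT-EF and 164, 110.0 and 148 CPM with DAF (-2.85, SE 0.30, adjusted p = 1.08e-05).

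DNA replication genes were higher with WT-EF in 51 of 56 members and lower in 0, beside 12.4% and 16.1% of all genes, with a median log2 fold change of 0.58. Differences were small and even, from -0.13 to 1.07. By replicate set the median of WT-EF minus DAF was 0.42, 0.58 and 0.66. *MCM6*, a subunit of the replicative helicase, was at 112, 132 and 143 CPM with WT-EF and at 61.3, 63.3 and 72.7 CPM with DAF (0.97, SE 0.09, adjusted p = 4.99e-06). *GINS2*, of the GINS complex of the same helicase, was at 37.9, 42.9 and 41.8 against 20.7, 18.5 and 19.7 CPM (1.06, SE 0.09, adjusted p = 3.14e-06), and *RFC4*, of the clamp loader, at 87.8, 100.3 and 103 against 51.4, 53.1 and 47.4 CPM (0.94, SE 0.09, adjusted p = 5.91e-06). All WT-EF libraries were above all DAF libraries in the 3 genes. The DAF libraries also lay below iEF here, with a list median of -0.45 from iEF, beside 0.10 for WT-EF, and *MCM6* was at 111 ± 3.68 CPM in iEF cells.

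Mitosis and spindle genes had 32 higher (48.5%) and 1 lower (1.52%) members of 66 (median 0.35), beside 12.4% and 16.1% of all genes. Both constructs were below iEF (-0.21 with WT-EF and -0.57 with DAF). Without DAF replicate 3, 20 members were higher, and with library totals 47. *MYBL2*, the transcription factor B-MYB of cell cycle genes, was at 128, 136 and 151 CPM with WT-EF and 66.9, 70.9 and 71.8 CPM with DAF (0.98, SE 0.09, adjusted p = 4.83e-06). *NCAPH*, a condensin subunit, and *KIF15*, a spindle motor, were higher by 0.68 and 0.75, and the phosphatase gene *CDC25B* was the lower member, at -0.65. Of 21 G1 cyclins, CDKs, inhibitors and E2F factors, 8 (38.1%) were higher and 3 (14.3%) lower, the latter near the share of all genes. *E2F2* was at 31.1, 38.2 and 47.6 CPM with WT-EF and 7.49, 13.5 and 8.95 CPM with DAF (1.98, SE 0.16, adjusted p = 2.42e-06). The CDK inhibitor *CDKN1A* was at 54.1, 55.8 and 57.0 against 124, 127 and 216 CPM (-1.43, SE 0.15, adjusted p = 1.24e-05) and the kinase gene *CDK6* at 69.3, 71.3 and 48.2 against 155, 154 and 177 CPM (-1.36, SE 0.20, adjusted p = 0.000142), both with no overlap, and *E2F7*, a repressor of the E2F family, had a log2 fold change of -0.98. There were 4 higher G1 members without replicate set 1 and 5 without WT-EF replicate 2 or replicate set 2.

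Genes of ribosome biogenesis were higher with WT-EF in 30 of 42 members and ribosomal protein genes in 26 of 55, with 0 and 0 lower. Higher members made up 71.4% and 47.3%, beside 12.4% of all genes and 23.6% of those averaging 1000 counts or more. The medians were 0.38 and 0.26. *POLR1B*, a large subunit of RNA polymerase I, was at 90.6, 118 and 116 CPM with WT-EF and at 53.5, 60.6 and 64.8 CPM with DAF (0.85, SE 0.09, adjusted p = 8.43e-06), and the nucleolar *NOLC1* at 361, 422 and 405 against 194, 236 and 264 CPM (0.78, SE 0.09, adjusted p = 2.98e-05). Among ribosomal proteins, *RPS27*, *RPL6* and *RPL13* had log2 fold changes of 0.63, 0.44 and 0.45. Calls in these lists depend on single libraries: ribosomal proteins had 5 higher members without replicate set 2, 8 without replicate set 1, 12 to 15 with any 1 DAF library left out, 13 without WT-EF replicate 2 and 47 with library totals, and ribosome biogenesis 16 and 17 without replicate sets 2 and 1. Respiratory chain genes had 10 higher (23.8%) and 2 lower (4.76%) of 42 (median 0.11), beside 12.4% and 16.1% of all genes. The share of higher members is near the 23.6% of genes averaging 1000 counts or more. There were 2 higher members without replicate set 2, 5 with any 1 DAF library left out, 6 without WT-EF replicate 2 and 20 with library totals. *COX7C*, a subunit of cytochrome oxidase, had the smallest adjusted p (0.77, SE 0.10, adjusted p = 5.22e-05).

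In amino acid metabolism, 8 of 30 genes of serine and one-carbon synthesis and the amino acid stress response were higher and 5 lower (median -0.01). These shares, 26.7% and 16.7%, stand beside 12.4% and 16.1% of all genes and 23.6% and 31.5% of those averaging 1000 counts or more. *PHGDH*, the first enzyme of serine synthesis, was at 87.6, 172 and 181 CPM with WT-EF and at 57.9, 87.2 and 72.0 CPM with DAF (0.99, SE 0.12, adjusted p = 3.74e-05). The groups were only just apart, between 87.6 CPM in WT-EF replicate 1 and 87.2 CPM in DAF replicate 2, and each WT-EF library exceeded its DAF partner. *ASNS*, asparagine synthetase, followed at 43.5, 84.2 and 94.8 against 21.6, 37 and 33.6 CPM (1.24, SE 0.15, adjusted p = 3.34e-05), and *PSPH*, phosphoserine phosphatase, at 0.49. Lower with WT-EF were *ALDH1L2* (-1.59) and *SESN2* (-0.97), and *WARS1*, a tRNA synthetase that interferon also induces, at 199, 199 and 141 CPM with WT-EF and 446, 459 and 994 CPM with DAF (-1.71, SE 0.31, adjusted p = 0.000787). The other lower members, named after their values were seen, were *MTHFD1L* (-0.46, SE 0.10, adjusted p = 0.00229) and *SLC1A4* (-0.71, SE 0.19, adjusted p = 0.0107).

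Among subunits of the BAF remodeling complex, 10 of 27 were higher and 2 (7.41%) lower with WT-EF (median 0.17). Of all genes 12.4% were higher and 16.1% lower, and of those averaging 1000 counts or more 23.6% and 31.5%. *SMARCC1*, a core subunit, was at 288, 352 and 416 CPM with WT-EF and at 146, 172 and 178 CPM with DAF (1.08, SE 0.09, adjusted p = 3.25e-06), and *BCL7A* and *ARID2* had log2 fold changes of 1.04 and 0.53. DAF left *SMARCC1* near its iEF level of 148 ± 1.45 CPM, while iLuc was at 413 ± 18.1 CPM. Neither lower member, *DPF1* (-0.71, SE 0.20, adjusted p = 0.0139) or the ATPase *SMARCA2* (-0.25, SE 0.08, adjusted p = 0.0384), was called without replicate set 1 (adjusted p = 0.0792 [0.000852 to 0.0904] and 0.111 [0.00227 to 0.499]) or without DAF replicate 2 (0.0681 and 0.174), WT-EF replicate 2 (0.0639 and 0.127) or, for *SMARCA2*, WT-EF replicate 1 (0.101) or DAF replicate 3 (0.111). Of 27 polycomb genes 10 were higher and 4 (14.8%) lower (median 0.19). The share of lower polycomb members is thus near that of all genes. *EZH2*, the methyltransferase of polycomb complex PRC2, was at 192, 234 and 235 against 129, 143 and 131 CPM (0.72, SE 0.10, adjusted p = 9.36e-05), its partner *MTF2* differed by 0.79 and *PHC1*, of PRC1, by 1.0. *PCGF5* (-0.93), *PHC3* (-0.43) and *PHF1* (-0.47) were lower, as was *PHF19*, named after its values were seen (-0.41, SE 0.10, adjusted p = 0.00689). *PHF1* was not called without replicate set 1 or replicate set 2 (adjusted p = 0.0555 [1.17e-05 to 0.130] and 0.130) or with library totals, where 2 polycomb genes were lower and 17 BAF genes higher.

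All 13 tested genes on a list of targets that the fusion is known to repress were lower with WT-EF than with DAF, and all 13 by over 2-fold. Of all genes 16.1% were lower and 7.70% by over 2-fold. The list was drawn up with earlier results of these data known, so this count is not an independent test. The median log2 fold change was -2.19, and by replicate set it was -1.87, -1.73 and -3.29. From iEF the list stood at a median of -2.38 with WT-EF and at -0.21 with DAF. Relative to the iEF mean, the list medians of log2(CPM + 1) were -1.75, -2.35 and -2.82 in the WT-EF replicates and -0.08, -0.39 and 0.07 in the DAF replicates, so DAF libraries lay at or a little below the iEF level. The iLuc cells went further still, to -5.21 from iEF. On ComBat-adjusted counts with DESeq2 and no block, 5 of the 13 were called and 1 was given no adjusted p.

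*TGFBR2*, the type 2 receptor of TGF-beta, was at 65.4, 47.9 and 47.2 CPM with WT-EF and at 141, 139 and 193 CPM with DAF, with iEF at 139 ± 7.54 CPM. DAF libraries were at or above the iEF level and WT-EF libraries far below it (-1.54, SE 0.16, adjusted p = 9.10e-06). *IGFBP3*, a secreted binding protein of insulin-like growth factors, was at 257, 185 and 73.6 CPM with WT-EF and at 3766, 2172 and 2695 CPM with DAF (-4.13, SE 0.28, adjusted p = 6.34e-07), a 17.6-fold difference in the fit. DAF cells were -1.0 from iEF on the log2 scale (adjusted p = 0.0164) and WT-EF cells -5.13 from it. *LOX*, lysyl oxidase, which crosslinks collagen, was at 66.0, 45.5 and 13.3 CPM with WT-EF and 244, 153 and 173 CPM with DAF (-2.25, SE 0.34, adjusted p = 0.000168), and DAF was -0.97 from iEF (adjusted p = 0.0679). The spread of *IGFBP3* and *LOX* within WT-EF was wide, with replicate 3 the lowest library, but no WT-EF library reached a DAF library.

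*THBS1*, thrombospondin 1, was at 4.62, 5.15 and 1.70 CPM with WT-EF and at 53.0, 60.3 and 98.4 CPM with DAF (-4.14, SE 0.36, adjusted p = 3.09e-06), and iEF cells at 139 ± 47.3 CPM. *IGFBP5* had the smallest adjusted p of the list, at 164, 176 and 130.3 CPM with WT-EF and 2167, 1638 and 1286 CPM with DAF (-3.43, SE 0.15, adjusted p = 1.24e-08). DAF cells had more *IGFBP5* than iEF cells, by 1.05 on the log2 scale (adjusted p = 0.000208). On ComBat-adjusted counts with DESeq2, *IGFBP3* (adjusted p = 0.181 [3.12e-58 to 0.181]), *LOX* (0.0966 [6.66e-27 to 0.0966]) and *THBS1* (0.173 [3.73e-44 to 0.173]) were not called, with the direction kept, and *IGFBP5* was given no adjusted p.

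**Figure D4:**
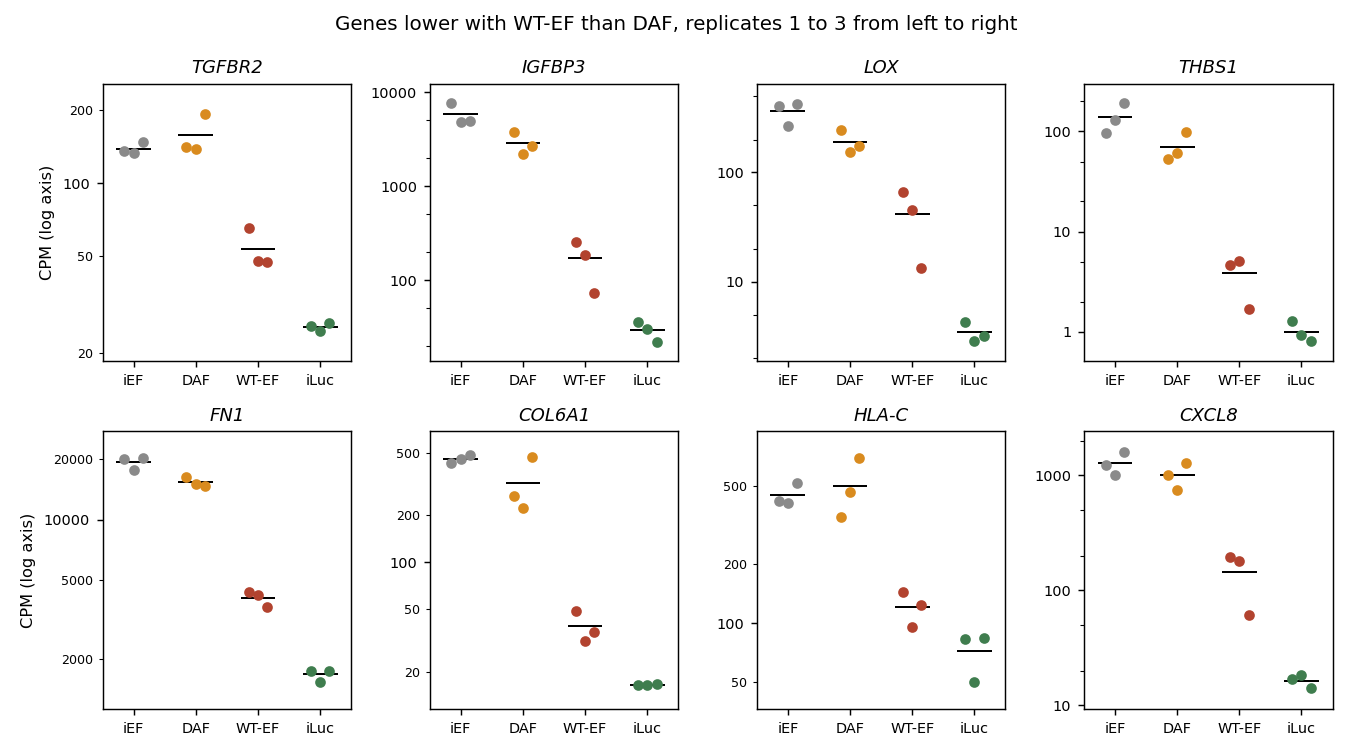
CPM (log axis) of 8 genes in iEF, DAF, WT-EF and iLuc cells, each point being a library and each bar a group mean (n = 3). WT-EF libraries lie below all DAF libraries in each gene and iLuc libraries are lower again, while DAF libraries lie near iEF or between iEF and WT-EF.

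Genes of the extracellular matrix were lower with WT-EF in most members of each of 4 lists. Lower were 23 of 40 collagens (median -1.11), 38 of 53 matrix glycoproteins, proteoglycans and crosslinking enzymes (-1.31), 24 of 31 integrins and laminins (-1.46) and 27 of 38 matrix proteases and their inhibitors (-1.19). Higher were 2, 2, 2 and 0. The lower members made up 57.5%, 71.7%, 77.4% and 71.1%, beside 16.1% of all genes. From iEF the 4 medians were -1.03, -1.82, -1.59 and -1.31 with WT-EF and 0.06, -0.35, -0.24 and -0.07 with DAF. *FN1*, fibronectin, among the most abundant transcripts of these cells, was at 4357, 4179 and 3638 CPM with WT-EF and at 16288, 15064 and 14708 CPM with DAF (-1.92, SE 0.10, adjusted p = 1.61e-07). Leaving out any 1 of the 6 libraries left 20 to 22 collagens, 35 to 37 glycoprotein, 22 to 25 integrin or laminin and 23 to 27 protease members lower.

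*COL6A1*, a chain of microfibrillar collagen VI, was at 49.0, 31.6 and 36.1 CPM with WT-EF and at 268, 223 and 476 CPM with DAF (-2.98, SE 0.25, adjusted p = 2.83e-06), although it was not called on ComBat-adjusted counts (adjusted p = 0.0572 [5.27e-42 to 0.0572]). *COL5A1*, of fibrillar collagen V, was at 69.9, 80.1 and 79.2 against 213, 298 and 348 CPM (-1.88, SE 0.16, adjusted p = 3.07e-06), and *COL13A1*, a transmembrane collagen, had a log2 fold change of -2.31. The higher collagens were *COL21A1* (1.16, SE 0.22, adjusted p = 0.00116) and *COL25A1* (1.30, SE 0.31, adjusted p = 0.00563), in both of which a WT-EF library was below a DAF library, though WT-EF exceeded DAF within each replicate set, and *COL25A1* was not called without replicate set 2 (adjusted p = 0.0613 [4.29e-09 to 0.0613]). *ELN*, elastin, was at 13.5, 13.3 and 14.6 CPM with WT-EF and 75.2, 70.1 and 108 CPM with DAF (-2.57, SE 0.16, adjusted p = 4.07e-07), above its iEF level of 38.4 ± 13.3 CPM with DAF and below it with WT-EF. *NID2*, nidogen 2 of basement membranes, had a log2 fold change of -2.08. *OGN* (0.95) and *MFAP4* (0.64) were the higher glycoprotein members, and neither was called without DAF replicate 1 (adjusted p = 0.0658 [0.00123 to 0.150] and 0.0566 [0.00269 to 0.174]), nor was *MFAP4* without WT-EF replicate 3 (0.174), DAF replicate 2 (0.0819) or DAF replicate 3 (0.121).

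Of the integrins, *ITGA4* was at 14.5, 19.8 and 15.9 CPM with WT-EF and at 56.9, 62.0 and 53.3 CPM with DAF (-1.79, SE 0.16, adjusted p = 3.80e-06) and *ITGA10*, a collagen receptor, at 4.82, 2.25 and 1.09 against 32.7, 25.7 and 23.6 CPM (-3.39, SE 0.29, adjusted p = 2.92e-06), the latter with no adjusted p from DESeq2 on ComBat-adjusted counts. *ITGB3*, the beta-3 subunit, was among the 12 genes with the largest fitted decreases, at 0.997, 0.740 and 0.107 against 15.1, 9.60 and 19.6 CPM (-4.57, SE 0.44, adjusted p = 6.19e-06). *LAMB2*, a laminin chain, was lower (-1.42), and *LAMA2* and *LAMB3* were the higher members (0.84 and 0.63), neither of them called without DAF replicate 1 (adjusted p = 0.0665 [0.000132 to 0.0665] and 0.132 [0.000238 to 0.220]) or DAF replicate 3 (0.0584 and 0.0983), nor *LAMB3* without WT-EF replicate 1 (0.181). Among proteases, *MMP14*, the membrane-bound collagenase, was at 145, 139 and 135 CPM with WT-EF and 343, 323 and 397 CPM with DAF (-1.34, SE 0.11, adjusted p = 2.09e-06). The urokinase receptor gene *PLAUR* was at 42.9, 32.9 and 22.5 against 147, 116 and 138 CPM (-2.03, SE 0.19, adjusted p = 5.00e-06) and *PLAT*, tissue plasminogen activator, at 49.5, 48.9 and 24.1 against 234, 190.5 and 327 CPM. *PLAT* was -1.52 from iEF with DAF and -4.06 with WT-EF, so DAF lowered it part of the way (adjusted p = 0.00479), and its call between WT-EF and DAF was lost on ComBat-adjusted counts with DESeq2 (adjusted p = 0.303 [1.05e-32 to 0.303]).

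Cytoskeletal genes followed the matrix. Of 43 actin cytoskeleton and contractile genes 31 were lower and 0 higher (median -0.71), and 22 of 36 regulators and targets of YAP and TEAD were lower and 1 higher (-0.57). Lower members made up 72.1% and 61.1%, beside 16.1% of all genes and 31.5% of those averaging 1000 counts or more. *ACTN1*, alpha-actinin 1, was at 275, 198 and 156 CPM with WT-EF and at 479.6, 445 and 559 CPM with DAF (-1.25, SE 0.15, adjusted p = 3.87e-05), and *MYL6*, a myosin light chain, at 221, 219 and 181 against 443, 347 and 460.3 CPM (-1.0, SE 0.12, adjusted p = 4.27e-05). The focal adhesion adaptor *TGFB1I1* had a log2 fold change of -1.84 and was not called on ComBat-adjusted counts (adjusted p = 0.0678 [2.26e-16 to 0.0678]). *WWTR1*, which encodes the coactivator TAZ, was at 117, 107 and 86.9 CPM with WT-EF and at 282, 260.0 and 262 CPM with DAF (-1.38, SE 0.10, adjusted p = 8.76e-07), with DAF at 0.13 from iEF. *DOCK5*, a guanine nucleotide exchange factor of the list, was lower (-1.27), and *STK4*, the kinase MST1 that restrains YAP, was the higher member (0.44, SE 0.09, adjusted p = 0.00200), not called without replicate set 2 (adjusted p = 0.0555 [9.16e-06 to 0.0555]).

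In TGF-beta and activin signaling 20 of 29 genes (69.0%) were lower and 2 (6.90%) higher (median -1.0), beside 16.1% and 12.4% of all genes. With *TGFBR2*, its partner *TGFBR1* was lower, at 33.8, 31.7 and 17.8 CPM with WT-EF and 70.9, 76.1 and 66.4 CPM with DAF (-1.38, SE 0.15, adjusted p = 1.59e-05), and so was the signal transducer *SMAD3*, at 55.2, 30.7 and 40.3 against 156, 113 and 196 CPM (-1.87, SE 0.17, adjusted p = 4.83e-06). The higher members were both activin receptors, *ACVR2B* at 8.97, 12.7 and 16.0 CPM with WT-EF and 5.90, 6.70 and 6.04 CPM with DAF (1.01, SE 0.19, adjusted p = 0.000833) and *ACVR1B* (0.37, SE 0.10, adjusted p = 0.0123). *ACVR1B* was not called without DAF replicate 2 (adjusted p = 0.0904 [0.000125 to 0.185]) or without replicate set 1 (0.117) or set 2 (0.185).

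The insulin-like growth factor axis moved in 2 directions. The ligand gene *IGF1* was higher with WT-EF, at 61.6, 61.1 and 86.0 CPM with WT-EF and 14.2, 30.2 and 28.2 CPM with DAF (1.58, SE 0.32, adjusted p = 0.00176), and so was the receptor substrate gene *IRS2*, at 145, 146 and 144 against 61.6, 73.4 and 65.1 CPM (1.12, SE 0.09, adjusted p = 1.82e-06). Both constructs raised *IGF1* from an iEF mean of 1.63 ± 0.933 CPM, by 5.47 with WT-EF and 3.89 with DAF on the log2 scale (adjusted p = 2.66e-07 and 2.92e-05). Of the 19 genes, 13 were lower (median -1.10), *IGFBP3* and *IGFBP5* among them. On ComBat-adjusted counts with DESeq2, 8 were lower and 2 were given no adjusted p, and *IGFBP3* and *IGFBP5* were not among the 8. *IGFBP7*, another secreted binding protein, was at 2.55, 5.44 and 2.37 CPM with WT-EF and 25.2, 34.7 and 60.1 CPM with DAF (-3.48, SE 0.30, adjusted p = 2.98e-06). On ComBat-adjusted counts *IGF1* and *IGFBP7* were not called (adjusted p = 0.207 [3.92e-14 to 0.207] and 0.155 [1.63e-37 to 0.155]).

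**Figure D5:**
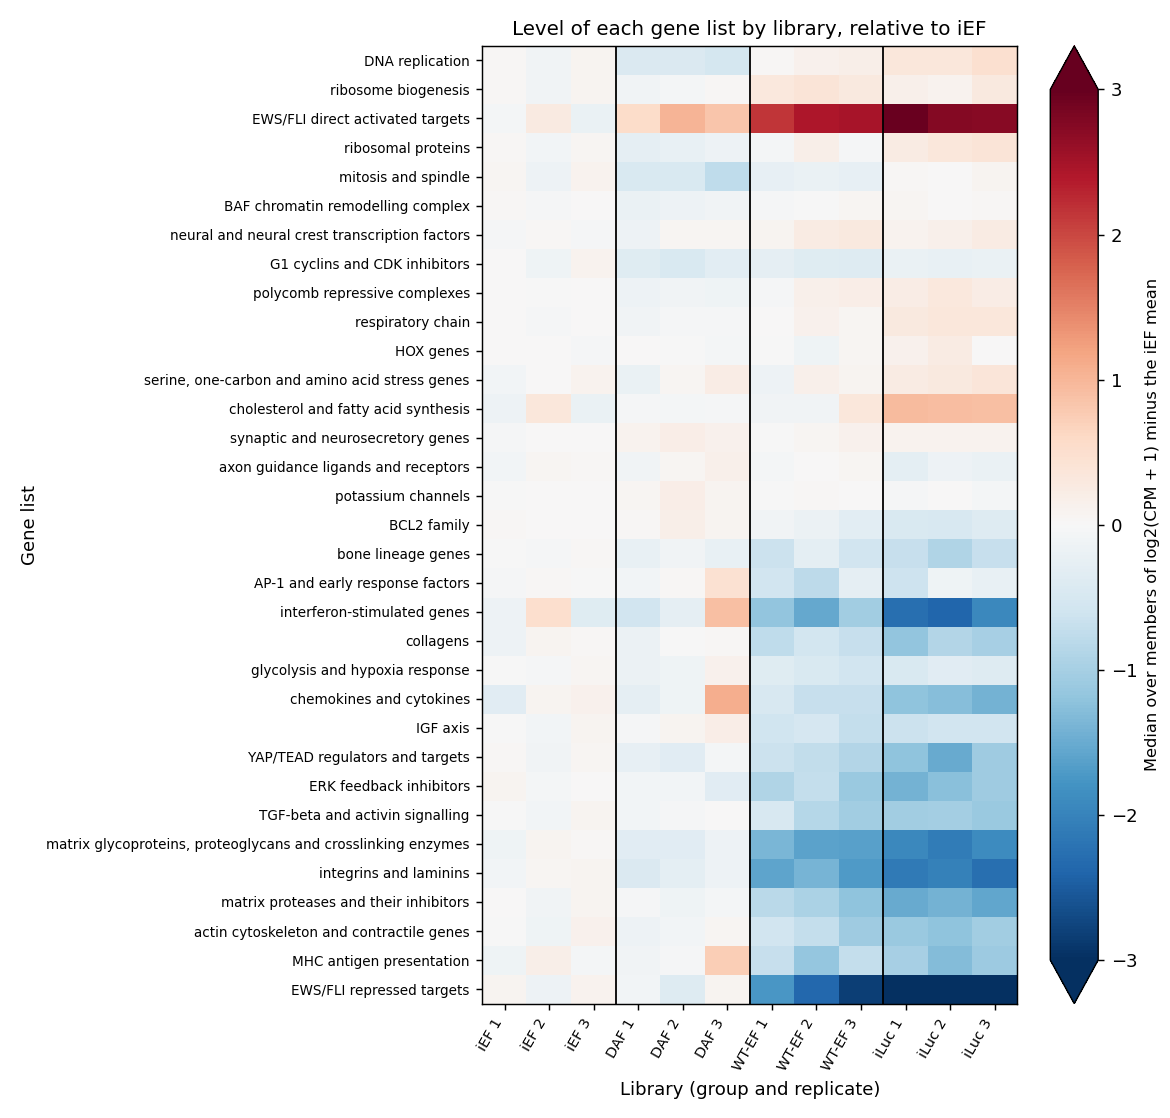
Median over the members of each list of log2(CPM + 1) minus the iEF mean (color scale) in each of 12 libraries (columns, grouped as iEF, DAF, WT-EF and iLuc). DAF columns are pale for the matrix and repressed target lists where WT-EF and iLuc are blue, and DAF replicate 3 is the most red of these 12 libraries for interferon-stimulated genes, MHC genes and chemokines.

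Immune genes were lower with WT-EF, and here DAF replicate 3 stood apart from the other DAF libraries. Lower were 22 of 46 interferon-stimulated genes (median -1.36), 22 of 26 genes of MHC antigen presentation (-1.94) and 19 of 34 chemokines and cytokines (-2.09). That is 47.8%, 84.6% and 55.9%, beside 16.1% of all genes. None of the 3 lists had a higher member in edgeR's test. The list medians of log2(CPM + 1) relative to iEF were -0.57, -0.27 and 0.91 in DAF replicates 1, 2 and 3 for interferon-stimulated genes, -0.10, -0.04 and 0.75 for MHC genes and -0.26, -0.13 and 1.09 for chemokines, against -1.18, -1.53 and -1.05, -0.69, -1.17 and -0.72 and -0.47, -0.69 and -0.69 with WT-EF. DAF replicate 3 was the only DAF library above the iEF mean in these 3 lists, and every iLuc library was below it. The library of the same replicate set from del22 cells, which carried a form of the fusion without the EWS domain in place of DAF, stood higher still, at 1.72 for interferon-stimulated genes, 0.96 for MHC genes and 1.72 for chemokines. The other del22 libraries, replicates 1 and 2, were at -0.58 and -0.20, -0.17 and 0.15, and -0.27 and 0.03. High levels were thus shared by the DAF and del22 libraries of replicate set 3 and were not seen in its WT-EF or iLuc library, while iEF replicate 3 was at -0.35, -0.05 and 0.14. Without DAF replicate 3, 8 interferon-stimulated, 17 MHC and 11 chemokine genes were lower, beside 32, 19 and 15 without the whole of replicate set 3, and the median of WT-EF minus DAF over interferon-stimulated genes was -0.50, -1.18 and -2.17 in replicate sets 1, 2 and 3. Interferon-stimulated genes also had 10 and 9 lower members without WT-EF replicates 2 and 3, 7 without replicate set 2, 9 on ComBat-adjusted counts, 35 in the 6 libraries alone and 40 without the filter on low counts. Chemokines had 9 without WT-EF replicate 3, 12 without replicate set 2 and 6 on ComBat-adjusted counts. What set DAF replicate 3 apart was not tested.

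MHC genes kept the highest number of calls of the 3 lists without that library. *HLA-C*, of MHC class I, was at 145, 95.3 and 124 CPM with WT-EF and at 347, 467 and 693 CPM with DAF (-2.0, SE 0.25, adjusted p = 4.37e-05), with DAF 0.13 from iEF, though reads of class I genes may be shared among them. *CIITA*, the master regulator of class II genes, was at 0.775, 0.344 and 0.240 against 2.99, 1.45 and 3.72 CPM (-2.63, SE 0.39, adjusted p = 0.000150). The class II gene *HLA-DRA* had 1 count in each WT-EF library and 49, 81 and 209 counts in the DAF libraries, a ratio of summed counts of 118 (95% interval 40.1 to 575, exact binomial, counting error only). In iEF cells *HLA-DRA* was at 1.61 ± 1.05 CPM.

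*IDO1*, which degrades tryptophan and is induced by interferon gamma, had 3 counts over the 3 WT-EF libraries and 119, 59 and 781 counts in DAF replicates 1, 2 and 3. The ratio of summed counts was 334 (95% interval 114 to 1622, counting error only). Most of these counts came from DAF replicate 3. The chemokine *CXCL9* was at 0.0554, 0 and 0.107 CPM with WT-EF and at 0.738, 0.765 and 20.4 CPM with DAF, and *TNFSF10*, the death ligand TRAIL, at 0.138, 0.106 and 0 against 1.02, 4.80 and 21.2 CPM, in both cases with the same library highest. *CXCL8*, interleukin 8, did not depend on that library, at 196, 179 and 61.6 CPM with WT-EF and 1015, 741 and 1290 CPM with DAF (-2.73, SE 0.42, adjusted p = 0.000209), and neither did *LIF*, at 8.45, 5.07 and 2.80 against 42.2, 35.2 and 72.1 CPM (-3.04, SE 0.48, adjusted p = 0.000255), or *TNFSF4* (-2.22). In all of these genes every DAF library was above every WT-EF library.

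Of the interferon-stimulated genes, *SAMD9L*, which restrains translation, was at 12.6, 6.82 and 5.96 CPM with WT-EF and at 143, 119 and 273 CPM with DAF (-4.29, SE 0.48, adjusted p = 1.84e-05). *SAMD9* and *IFITM3*, a membrane protein that blocks viral entry, had log2 fold changes of -2.35 and -2.21. DAF cells were 1.48 above iEF for *SAMD9L* (adjusted p = 0.0375) and WT-EF cells -2.81 from it. *IDO1*, *CXCL9*, *TNFSF10*, *CXCL8*, *LIF*, *SAMD9L* and *SAMD9* were not called on ComBat-adjusted counts with DESeq2 (adjusted p between 0.0618 and 0.313).

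The other genes with the largest fitted decreases were membrane and enzyme genes. *LAPTM5*, a lysosomal membrane protein, was at 0.111, 0.317 and 0.0799 CPM with WT-EF and at 6.36, 11.1 and 12.1 CPM with DAF (-5.84, SE 0.32, adjusted p = 1.61e-07), with iEF cells between them at 1.33 ± 0.104 CPM. *NNMT*, nicotinamide N-methyltransferase, was at 1.47, 1.11 and 0.453 against 26.0, 34.6 and 111 CPM (-5.50, SE 0.59, adjusted p = 1.35e-05) and the adhesion molecule gene *CEACAM1* at 1.41, 0.713 and 0.479 against 25.6, 25.4 and 56.4 CPM (-5.31, SE 0.44, adjusted p = 2.57e-06). *LRRC15*, a membrane protein of mesenchymal cells, was at 1.30, 1.14 and 0.373 against 33.1, 23.6 and 61.1 CPM (-5.30, SE 0.42, adjusted p = 1.82e-06). *LRRC32*, which anchors latent TGF-beta at the cell surface, *CD93* and *APOL3* had log2 fold changes of -4.35, -4.39 and -5.06. Fitted levels with DAF exceeded those in iEF cells for all of these, by 3.24 for *CD93*, 2.85 for *LAPTM5*, 2.27 for *CEACAM1*, 2.04 for *APOL3*, 1.95 for *LRRC32*, 1.89 for *LRRC15* and 1.32 for *NNMT* on the log2 scale, with adjusted p values of 0.000284, 1.42e-05, 0.00125, 0.0390, 0.00591, 0.00243 and 0.0875. Of these differences that of *NNMT* did not pass. DAF replicate 3 was again the highest DAF library in each. *APOL3* was not called on ComBat-adjusted counts (adjusted p = 0.0951 [2.79e-32 to 0.0951]).

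Genes of the immediate early response were lower in 11 of 23 members (47.8%, median -0.67), and feedback inhibitors and targets of ERK signaling in 12 of 17 (70.6%, -0.81). Of all genes 16.1% were lower, and of those averaging 1000 counts or more 31.5%. Higher members made up 4.35% and 11.8%, beside 12.4% of all genes. *FOSL1*, the AP-1 subunit FRA1, was at 22.5, 11.8 and 8.73 CPM with WT-EF and at 55, 43.4 and 55.1 CPM with DAF (-1.87, SE 0.22, adjusted p = 2.25e-05), and *FOSL2* and the early response gene *IER3* had log2 fold changes of -1.50 and -2.36. *NR4A3*, an orphan nuclear receptor, was the higher member (0.72, SE 0.24, adjusted p = 0.0358), and it was not called without WT-EF replicate 3 or any 1 DAF library (adjusted p between 0.0637 and 0.228 [0.00427 to 0.228]). *SPRY2*, a Sprouty inhibitor, was at 45.6, 41.0 and 20.0 CPM with WT-EF and 155, 116 and 105 CPM with DAF (-1.84, SE 0.19, adjusted p = 1.09e-05). *DUSP4*, an ERK phosphatase, and *PHLDA1* were lower as well, with log2 fold changes of -1.83 and -2.13. The higher members were *IL17RD*, an inhibitor of FGF signaling, at 6.26, 11.4 and 11.3 CPM with WT-EF and 3.66, 2.85 and 3.66 CPM with DAF (1.5, SE 0.24, adjusted p = 0.000300), and the ETS factor *ETV4* (0.89, SE 0.25, adjusted p = 0.0148). *ETV4* was not called without WT-EF replicate 3, DAF replicate 2 or DAF replicate 3 (adjusted p = 0.0939 [0.00106 to 0.159], 0.0579 and 0.0957). Both *IL17RD* and *ETV4* were highest in iEF cells (26.7 ± 6.56 and 7.12 ± 0.690 CPM), and DAF took them further down (-2.97 and -1.78) than WT-EF did (-1.48 and -0.89). On ComBat-adjusted counts *FOSL1*, *IER3* and *PHLDA1* were not called (adjusted p = 0.129 [1.87e-23 to 0.129], 0.175 [2.24e-28 to 0.175] and 0.231 [3.98e-30 to 0.231]), and DESeq2 gave *SPRY2* no adjusted p there.

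Glycolysis and hypoxia response genes were lower in 20 of 35 members (57.1%) and higher in 1 (2.86%), with a median of -0.62. Of all genes 16.1% were lower and 12.4% higher, and of those averaging 1000 counts or more 31.5% and 23.6%. *VEGFA*, the angiogenic factor, was at 62.4, 64.6 and 74.2 CPM with WT-EF and at 147, 133 and 189 CPM with DAF (-1.21, SE 0.10, adjusted p = 3.08e-06), *HK1*, hexokinase 1, at 349, 292 and 266 against 551, 516 and 631 CPM (-0.90, SE 0.10, adjusted p = 1.46e-05), and *BNIP3L*, a mitophagy receptor, had a log2 fold change of -1.05. The phosphofructokinase gene *PFKM* was the higher member (0.44). For *VEGFA* both iEF (139 ± 3.19 CPM) and iLuc (127 ± 21.6 CPM) lay with DAF rather than with WT-EF. Cholesterol and fatty acid genes had 8 higher (21.6%) and 6 lower (16.2%) members of 37 (median 0.13), beside 12.4% and 16.1% of all genes and 23.6% and 31.5% of those averaging 1000 counts or more. *ACAT2*, of cholesterol synthesis, and *ACACB*, an acetyl-CoA carboxylase, were higher (0.94 and 1.14) and *INSIG1* and *ELOVL1* lower (-1.06 and -0.91). There were 4 higher members without WT-EF replicate 3, DAF replicate 2 or DAF replicate 3, and 3 lower members without replicate set 2.

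In the BCL2 family of apoptosis regulators 2 of 16 genes (12.5%) were higher and 7 (43.8%) lower, beside 12.4% and 16.1% of all genes. The share of higher members is thus near that of all genes. *BCL2*, which protects cells, was at 59.5, 83.3 and 67.2 CPM with WT-EF and at 28.7, 40.7 and 23.1 CPM with DAF (1.2, SE 0.16, adjusted p = 5.62e-05), while its protective relatives *BCL2L1* (-0.81, SE 0.13, adjusted p = 0.000385) and *BCL2A1* (-3.33, SE 0.65, adjusted p = 0.00132) were lower, as was the proapoptotic *BOK* (-1.32). *BCL2A1* was not called without replicate set 2 (adjusted p = 0.0547 [5.44e-16 to 0.160]) or on ComBat-adjusted counts (0.160). *BIK*, a BH3-only gene, was the other higher member (1.42), with overlapping groups, and was not called without WT-EF replicate 3, DAF replicate 2 or DAF replicate 3 (adjusted p = 0.110 [0.000825 to 0.110], 0.0788 and 0.0709). Genes of the bone lineage were lower in 8 of 17 (47.1%) and higher in 1 (5.88%). There were 3 to 5 lower without WT-EF replicate 3 or with any 1 DAF library left out, and 5 without the replicate block or on ComBat-adjusted counts. *DLX5*, an osteoblast homeobox gene, was the higher member, at 9.997, 10.3 and 20.6 CPM with WT-EF and 3.27, 4.72 and 4.96 CPM with DAF (1.63, SE 0.23, adjusted p = 0.000124). *RUNX2*, the osteoblast master regulator, overlapped between groups (-0.81, SE 0.22, adjusted p = 0.0135), and was not called without WT-EF replicate 2, WT-EF replicate 3 or DAF replicate 3 (adjusted p = 0.0610 [0.000639 to 0.118], 0.0722 and 0.0625).

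Markers were summed to check the cells. The 5 Ewing sarcoma markers summed to 335 to 449 CPM in WT-EF libraries and 127 to 203 CPM in DAF libraries, and *STEAP1* and *BCL11B* were higher with WT-EF (0.90 and 1.21). *CD99*, the surface marker used in diagnosis, had 7 counts over all 15 libraries, and it is carried in identical copies on the X and Y chromosomes, so its counts cannot be read as its level. The 10 blood cell markers were leukocyte genes and the red cell hemoglobin genes *HBB* and *HBA1*. They summed to 3.95 to 5.08 and 2.90 to 8.37 CPM, with *HBB* at 0 in every library and *CD14* the only one called (-2.89, SE 0.45, adjusted p = 0.000251). The 8 epithelial markers summed to 2.16 to 3.79 and 4.12 to 6.18 CPM, with *CLDN4* lower (-1.92) and *KRT20* higher (1.96), the latter not called without WT-EF replicate 2 or 3 or DAF replicate 2 or 3 (adjusted p between 0.0838 and 0.136 [0.00441 to 0.136]). The 6 endothelial markers summed to 4.61 to 15.4 and 21.3 to 27.8 CPM, mostly through the receptor gene *KDR*, at 12.6, 8.53 and 3.35 CPM with WT-EF and 26.2, 23.1 and 20.7 CPM with DAF (-1.60, SE 0.26, adjusted p = 0.000309), which was not called on ComBat-adjusted counts (adjusted p = 0.213 [5.31e-14 to 0.213]). *VWF*, von Willebrand factor, had 4 counts over the WT-EF libraries and 33 over the DAF libraries, and its call was lost without DAF replicate 2 (adjusted p = 0.0972 [0.000642 to 0.116]). The part of other cells in the differences above was not tested.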

How the data were processed

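RNA was sequenced from 15 libraries of A673 cells, 3 in each of 5 groups, of which WT-EF and DAF were compared. Per the labels and the study's methods, total RNA libraries were read in pairs, aligned with STAR to hg19 (GRCh37) and counted per gene with htseq-count in intersection-strict mode, and the authors deposited these gene counts unnormalized. Total counts of the 6 libraries ran from 28659475 to 37953589. A table of the authors' ComBat-adjusted counts and a table of their own fold changes and p-values against iEF were not used, nor were 3 columns that belong to no sample listed here.

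Genes averaging 1 count or more over the 15 libraries (28793 of 57820 identifiers) were tested with the quasi-likelihood method of edgeR (version 4.0.16, R 4.3.3) after TMM scaling. All 15 libraries entered the fit, with group and replicate set as terms, because the study treated replicate sets as batches. Same-numbered WT-EF and DAF libraries deviated from their group means together (Pearson's r = 0.353, 0.306 and 0.176 across 13178 genes). Pairs with unlike numbers had r from -0.394 to 0.165. The highest of these, WT-EF replicate 3 with DAF replicate 2, was close to the value of set 3. Deviations from a group's own mean cancel within the group, so positive values for same-numbered pairs draw those of the other pairs down. The difference between same-numbered and other pairs is therefore partly built in. Calls had a Benjamini-Hochberg adjusted p under 0.05. The labels do not say how the 3 cultures of a group were separated, so p-values measure the spread between these samples, and intervals on count ratios cover counting error only. The named genes are those the study names for these libraries, the 12 largest increases and decreases among genes past both thresholds that averaged 50 counts or more and moved one way in every set, and up to 3 called members per list and direction, of which 4 genes are not reported here. Members and lists were chosen with earlier results of these data known. Alternatives were DESeq2 (1.42.0), ComBat from sva (3.50.0), other scalings and filters, a test against a 2-fold change, no replicate term, and leaving out libraries or sets. The fitting script was tested on simulated data. Gene positions and starts are those of GENCODE v44 lifted to GRCh37.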

Additional observations from a re-analysis of the deposited data

How the results depend on the processing

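With edgeR's test against a 2-fold change in place of a test against 0, 328 genes were higher and 703 lower, and among called genes the share that was higher was 31.8%, beside 43.6%. With library totals that share was 59.6% and the median log2 fold change of all genes was 0.15. Leaving out 1 library or 1 replicate set gave 2146 to 3487 higher and 3104 to 4451 lower genes, and 780 to 1297 and 1612 to 2475 past 2-fold. Without the replicate block, which uses the pairing of same-numbered libraries, 3087 genes were higher and 4142 lower, or 1133 and 2078 past 2-fold, and *EWSR1*, *MFAP4*, *LAMB3*, *NR4A3*, *SMARCA2*, *BIK* and *RUNX2* lost their calls (adjusted p between 0.0546 and 0.133). *FCGRT*, with no call in the report, reversed to -0.15 without replicate set 1 and to -0.08 without DAF replicate 1, and the libraries left out gave -0.15 to 0.36.

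Of 3430 values of 191 named genes over 18 alternatives, 3176 kept direction and side of the threshold, 244 kept direction but lost the call (106 of them in the test against a 2-fold change), 8 gained a call and 2 reversed, and 4 further values on ComBat-adjusted counts had no adjusted p from DESeq2 and are not counted. Of 522 list counts, 65 moved by over 1.5 times, 37 of them outside the test against a 2-fold change. The causes were not tested. Calls were least frequent among genes averaging 1 to 10 counts, at 2.06% higher and 2.90% lower, where counting error is greatest relative to the level.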

Other observations

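Among genes averaging 50 counts or more, the median log2 fold change of WT-EF over DAF by chromosome lay farthest from the others on chromosomes 11 and 13. On chromosome 11 it was -0.13 over 740 genes, of which 15.3% were higher with WT-EF and 35.3% lower, beside 22.3% and 28.2% of all 13178 such genes and an overall median of -0.02. By replicate set the chromosome 11 median was -0.06, -0.16 and -0.17. On chromosome 13 the median was 0.10 over 249 genes, of which 33.3% were higher and 24.9% lower, and by replicate set it was 0.05, 0.09 and 0.13. Both differences are small, both chromosomes were picked after their values were seen, and the cause was not tested.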
